A study of Ovis aries with 2 samples.

Results

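In the library of a sheep testis labelled ZEA0.75, 467 cell barcodes carried high counts of ACTA2, the smooth muscle actin of contractile cells, and were taken as ACTA2-high contractile barcodes. They were chosen by their own counts of unique molecular identifiers (UMIs, each standing for 1 captured RNA molecule): at least 500 UMIs in all, at least 5 of ACTA2, 0 of KCNJ8, at most 2 of DCN, 0 of VWF and CDH5 together, and 0 of C1QA, C1QB and C1QC together. KCNJ8 is a potassium channel subunit of pericytes, DCN a proteoglycan of fibroblasts, VWF and CDH5 are endothelial genes, and the C1Q genes are macrophage genes. The 467 barcodes, called members below, were 5.30% of the 8809 ZEA barcodes (exact binomial 95% interval 4.84 to 5.79) and came from 15839 barcodes in the whole series. Because these 8 genes chose the members, their levels are given only as a description.

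The study holds 2 droplet libraries of testis from sheep aged 8 months, 1 control and 1 with the treatment ZEA0.75. The labels do not spell out ZEA, and they give the number 0.75 without a unit or a route. With 1 library in each group there was no test, and treatment, animal, dissociation and Cell Ranger version cannot be told apart between the libraries. Cells of 1 library are not replicates, so all intervals below are 95% intervals for counting error only.

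Contractile cells of the testis lie in the wall of the seminiferous tubule, as peritubular myoid cells, and in the wall of arteries, as vascular smooth muscle. Both contract when myosin light chain kinase, switched on by calcium and calmodulin, phosphorylates the light chains of smooth muscle myosin, and both relax when myosin phosphatase reverses this. Myoid cells move fluid and sperm along the tubule and help to lay down its basement membrane. Pericytes, the mural cells of capillaries, share many of these genes with smooth muscle.

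ACTA2 ranged from 5 to 73 UMIs per member, with a median of 23 and quartiles of 14 and 32. Among ZEA barcodes that met every other criterion, 4367 had no ACTA2 UMI, 692 had 1, 111 had 2, 32 had 3 and 19 had 4. Just inside the limit lay 19 barcodes with 5 ACTA2 UMIs (median total 1048 UMIs), of which 17 held MYH11 and 16 held TPM2. Just outside lay the 19 with 4 (median total 785), of which 13 held MYH11, smooth muscle myosin heavy chain, and 15 held TPM2, a tropomyosin. Most barcodes on either side of the limit thus carried MYH11 and TPM2. The number of barcodes per count showed no gap at the limit, with 19 at 4 UMIs and 19 at 5. A further 125 ZEA barcodes had at least 5 ACTA2 UMIs but failed another criterion: 38 held KCNJ8, 49 held more than 2 DCN UMIs, 46 held VWF or CDH5 and 7 held a C1Q gene, some of them more than one of these. They stayed among the other ZEA barcodes in what follows.

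**Figure D1:**
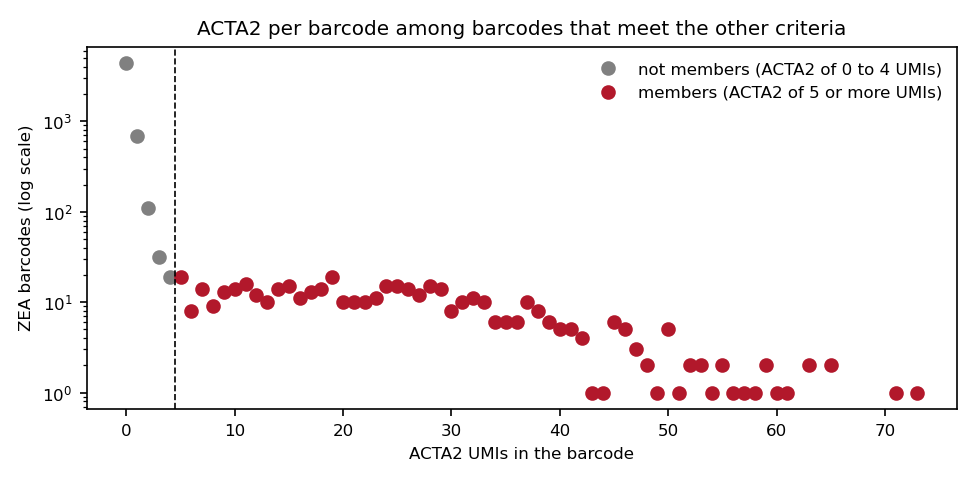
Number of ZEA barcodes (y axis, log scale) at each count of ACTA2 UMIs (x axis) among barcodes that met all other criteria; the dashed line marks the limit of 5 UMIs. Barcodes fall steeply from 4367 at 0 UMIs to 19 at 4, while the 467 members spread from 5 to 73 UMIs.

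In the control library the same rule found 3 of 7030 barcodes (0.0427%, 0.00880 to 0.125). These 3 held 20, 30 and 49 ACTA2 UMIs and 4, 27 and 15 MYH11 UMIs at totals of 1141, 2174 and 2989 UMIs. Only 31 control barcodes held any ACTA2 UMI and 7 held 5 or more, although the control library was the deeper one, with 53044981 UMIs against 22148456 in the ZEA library. With 3 barcodes, no expression was compared between the libraries. The libraries shared 15 barcode sequences, none of them among the members.

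The members had a median of 1862 UMIs (551 to 20917) and 952 detected genes, and a median of 2.15% of UMIs from mitochondrially encoded genes. The other 8342 ZEA barcodes had medians of 1340.5 UMIs and 0.662% mitochondrial UMIs. Members were also compared with 2 nearer sets of the same library, chosen by gates that do not overlap theirs. The KCNJ8 gate (70 barcodes, median 1628 UMIs) required at least 2 KCNJ8 UMIs, and the DCN gate (173 barcodes, median 1439 UMIs) at least 5 DCN UMIs with at most 1 of ACTA2. For background, levels were also read in an endothelial gate (1625 barcodes with at least 2 VWF and CDH5 UMIs, median 3363 UMIs) and in a spermatid gate (1167 barcodes with at least 10 UMIs of HMGB4, a haploid germ cell gene, median 3142 UMIs). Levels are UMIs of a gene summed over a set and scaled to counts per 1000000 UMIs of that set (CPM).

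The members carried the genes that define smooth muscle. All 7 smooth muscle markers that matched a symbol were detected (MYH11, TAGLN, CNN1, MYL9, TPM2, DES and CALD1), at 21460 CPM together in the members, 9041 in the KCNJ8 gate, 2303 in the DCN gate, 592 in the endothelial gate and 103 in the spermatid gate. Defining markers of several other types were at 0 in all 467 members: the endothelial genes TEK, TIE1 and PLVAP, the macrophage genes CD163, CSF1R and CD14, the Sertoli cell genes SOX9, FSHR, FATE1 and GATA1, and the pericyte genes NDUFA4L2 and STEAP4. A sum of 0 over the members allows up to 3 UMIs. Over the whole lists, 7 of 12 endothelial genes were detected at 41.3 CPM together and 4 of 10 macrophage genes at 10.1. These 2 lists include VWF, CDH5, C1QA, C1QB and C1QC, which the rule itself held at 0. Lymphocyte genes (2 of 8) were at 5.04 CPM, Sertoli cell genes (2 of 6) at 2.02 and spermatogonial genes (3 of 7) at 5.04. Spermatocyte genes (7 of 7) were higher than these, at 106 CPM, as were Leydig cell genes (4 of 5), at 63.5. Fibroblast markers (10 of 11) reached 628 CPM in the members and 21931 in the DCN gate, and pericyte markers (7 of 10) 1264 CPM and 7053 in the KCNJ8 gate. These sums include DCN and KCNJ8, which chose the sets, so the gaps follow in part from the gates.

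The same counts did not settle which contractile cell of the testis the members were. Of the markers of vascular smooth muscle, RGS5, a regulator of G protein signalling in mural cells, had 984 UMIs in the members and MCAM, an adhesion molecule of vessel walls, had 756. RERGL had 57 UMIs, KCNAB1 41, PLN, the inhibitor of the calcium pump, 32, the receptor NOTCH3 18 and CASQ2 4, while the adrenergic receptor ADRA2A was at 0. Of the tubule wall markers, WFDC1 had 108 UMIs, the calponin CNN1 91, the intermediate filament gene DES 73 and the integrin ITGA8 31, while the hedgehog receptor PTCH1 had 3. At least 1 UMI of RERGL, PLN, CASQ2, NOTCH3 or KCNAB1 was found in 110 members and at least 1 of DES, WFDC1 or CNN1 in 191. Both sets were found in 54 members and neither in 220. DES, WFDC1 or CNN1 was thus present in 49.1% of members with the first set (median 1974 UMIs). In members without the first set (median 1786 UMIs) the share was 38.4%. That set left out RGS5 and MCAM, which were found in 74.1% and 73.4% of members. DES and CNN1 also stand among the smooth muscle markers above, so this overlap cannot tell myoid from vascular cells. From these counts the members could not be divided into myoid and vascular cells, and they are called contractile barcodes throughout.

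The contractile apparatus was the main feature of the members. They were chosen by ACTA2, so high levels of other contractile genes, against any set below, follow in part from that choice. MYH11 was found in 451 of 467 members, with a median of 9 UMIs per member, quartiles of 5.5 and 15 and a highest count of 59. Its level was 5324 CPM (5181 to 5469) in the members and 83.7 CPM in the other ZEA barcodes, a 63.6-fold ratio. Between the gates it was 417 CPM for KCNJ8, 68.9 for DCN, 27.9 for endothelium and 14.0 for spermatids. With every barcode thinned to 500 UMIs, MYH11 remained in 84.4% of members and in 1.11% of spermatid gate barcodes, against 96.6% and 6.51% without thinning. So the members lay far above the share that spermatids, which should lack this gene, carried.

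TPM2 was found in 463 members (median 15 UMIs, highest 50), at 8002 CPM (7827 to 8180) against 205 in the other ZEA barcodes. TPM1, its partner tropomyosin, was at 2308 CPM against 59.5 (38.8-fold). TAGLN, the actin-binding transgelin, was in 399 members (median 2 UMIs, highest 14), at 1293 against 24.7 CPM (52.3-fold). ACTG2, the gamma actin of visceral smooth muscle, was in 328 members, at 1011 against 17.4 CPM (58.0-fold). Every one of these 4 genes was more than 30-fold higher in the members. ACTG2 and ACTA2 have nearly the same coding sequence, as do some tropomyosins and metallothioneins among themselves, so reads shared between such copies are uncertain.

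Over the whole list of filament and anchor genes, 27 of 28 matched genes had enough counts to enter (at least 50 UMIs over both sums and detection in at least 5% of 1 side). Of these, 25 were at least 2-fold higher in the members than in the other ZEA barcodes and none was 2-fold lower, beside 11.3% of all 5799 entering genes at least 2-fold higher. The list's median log2 ratio was 3.72, beside −0.32 for all entering genes. Of the 25, 12 reached 5% detection in the members only, a route that favours genes high in the members, and 355 of the 657 higher genes overall entered in this way. Among the 15 listed genes that the other ZEA barcodes also held in at least 5%, 13 were at least 2-fold higher (median log2 2.74), beside 302 of 5302 such genes overall. The exceptions were CAV1, the coat protein of caveolae, at 125 CPM against 135, and the non-muscle myosin MYH10 at 117 against 88.8 CPM. CALD1, caldesmon, was at 6590 CPM in the members and 5736 in the KCNJ8 gate, close to each other, and at 31.5 in the spermatid gate. Lower-count members of the list also lay in this direction: CNN1 at 91.7 against 1.37 CPM, LDB3, a protein of the contractile anchor, at 68.6 against 1.80, and the light chain MYL9 at 86.7 against 2.55.

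**Figure D2:**
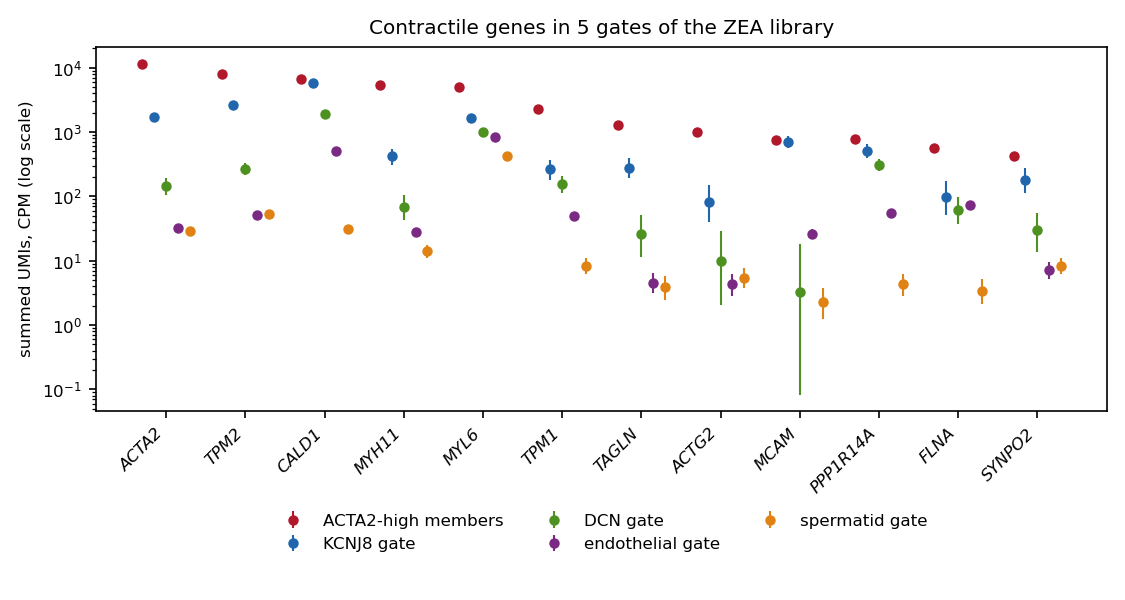
Levels of 12 contractile genes (x axis) as summed UMIs in CPM (y axis, log scale) in the members and 4 gates of the ZEA library; bars are exact Poisson 95% intervals. For MYH11 the members stand at 5324 CPM and the KCNJ8, DCN, endothelial and spermatid gates at 417, 68.9, 27.9 and 14.0, while for CALD1 and MCAM the members and the KCNJ8 gate lie close together.

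Genes that switch myosin on and off were also high. Of 11 entering genes, 9 were at least 2-fold higher and none 2-fold lower, beside 11.3% and 16.9% of all entering genes. The list's median log2 ratio was 2.71, and 2 of the 9 entered through the members alone. The kinase MYLK was at 743 CPM in members and 113 in the other ZEA barcodes. PPP1R12A, the targeting subunit of myosin phosphatase, was at 1741 against 177 CPM, and PPP1R14A, which inhibits that phosphatase, at 789 against 53.6. ROCK1, a kinase that also restrains the phosphatase, was at 866 against 159 CPM. Opposing regulators of myosin were therefore high together in the members.

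For genes of calcium handling and potassium channels the count rested on how genes entered. Of 13 that entered, 9 were at least 2-fold higher and none lower, beside 11.3% and 16.9% of all entering genes. However, 8 of these 9 entered through their detection in the members alone. Of the 4 also detected in 5% of the other ZEA barcodes, 1 (ATP2A2) was higher, and with an entry of 200 UMIs 2 of 6 were, with a median log2 ratio of 0.03 in place of 2.62. The values of single genes are given as a description. The channel TRPC6 was at 54.4 CPM in the members against 1.84 in the other ZEA barcodes, PLN at 32.3 against 1.61, and the exchanger SLC8A1 at 61.5 against 4.92. ATP2A2, the calcium pump of the sarcoplasmic reticulum, was at 158 against 31.6 CPM and its release channel ITPR1 at 85.7 against 13.9. CACNA1C, the pore of the L-type calcium channel, had only 16 UMIs in the members and did not enter.

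Hormone and amine receptors were sparse: 4 of 22 matched genes entered, EDNRA through the members alone. Both subunits of the nitric oxide receptor guanylate cyclase were higher in the members than in the other ZEA barcodes, GUCY1B1 at 363 against 37.6 CPM and GUCY1A1 at 125 against 42.9. The endothelin receptor EDNRA was at 35.3 against 4.11 CPM, and the thrombin receptor F2R was lower, at 26.2 against 60.2. The oxytocin receptor OXTR, the angiotensin receptor AGTR2 and the muscarinic receptors CHRM2 and CHRM3 had no UMI in any member, which allows up to 3 over 467 barcodes. The vasopressin receptor AVPR1A, the endothelin receptor EDNRB and the angiotensin receptor AGTR1 had 3 UMIs each. AGTR1 was plainly present in the KCNJ8 gate, at 188 CPM (119 to 282) against 3.02 in the members (log2 −5.96, −8.34 to −4.23), in 30% of barcodes against 0.642%. With 23 UMIs in the gate, AGTR1 did not enter that comparison, and its ratio is a description.

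Over all genes, 657 of 5799 (11.3%) were at least 2-fold higher in the members than in the other ZEA barcodes and 981 (16.9%) at least 2-fold lower, so 40.1% of these calls were higher. That split depended on scaling: centring on the median gene (a shift of −0.32 in log2) put 66.9% of calls on the higher side, and weighting each barcode equally 29.8%. It also depended on a small group of members rich in spermatid transcripts (group 4, described below), without which 1858 genes were at least 2-fold lower. The part of spermatid RNA in this count was not tested.

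The 30 genes with the highest ratios included filament genes and others with no place in the lists of contraction. DAPL1 led with 651 CPM in the members against 8.65 (75.3-fold), and was found in 62.7% of members and 1.63% of the other barcodes; thinned to 500 UMIs it was in 25.1% of members and 0.257% of the spermatid gate. RCAN2, an inhibitor of the phosphatase calcineurin, was at 592 against 13.0 CPM (45.5-fold). MRVI1, a substrate of cyclic GMP-dependent kinase in smooth muscle, was at 240 against 7.47 CPM, and FXYD1, a regulator of the sodium pump, at 391 against 11.7. The actin-binding gene NEXN was at 309 against 11.0 CPM. PARM1, OLFML2A, CLDN10, RASL11A, CPE and HEBP2 lay between 23.0-fold and 36.1-fold. Each of the 30 genes stayed at least 2-fold higher under all 13 other settings tried. Some of the 13 changed only which genes enter or count as called. Those settings left each ratio as it was and could not fail.

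Several secreted and membrane genes belonged to the same leading set. IGFBP2 was at 1997 CPM in the members against 114 in the other ZEA barcodes and IGFBP5, a second binding protein of insulin-like growth factors, at 363 against 17.3. S100A4, a calcium-binding protein, was at 3412 against 152 CPM, but the DCN gate held 3678, so it did not set the members apart from DCN-high barcodes. The galectin LGALS1 was at 1145 CPM, with 851 in the KCNJ8 gate and 856 in the DCN gate, and was likewise common to these sets.

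The 10 lowest genes were TNFSF10, EMCN, MLLT3, C1orf115, ADGRL4, ABCG2, CA4, TM4SF18, PALMD and PECAM1. PECAM1 and EMCN are surface proteins of endothelium. PECAM1 had 5 UMIs in the members, 5.04 CPM against 138, and EMCN had 1. The rule kept out barcodes with VWF or CDH5, so low endothelial genes follow in part from how the members were chosen.

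**Figure D3:**
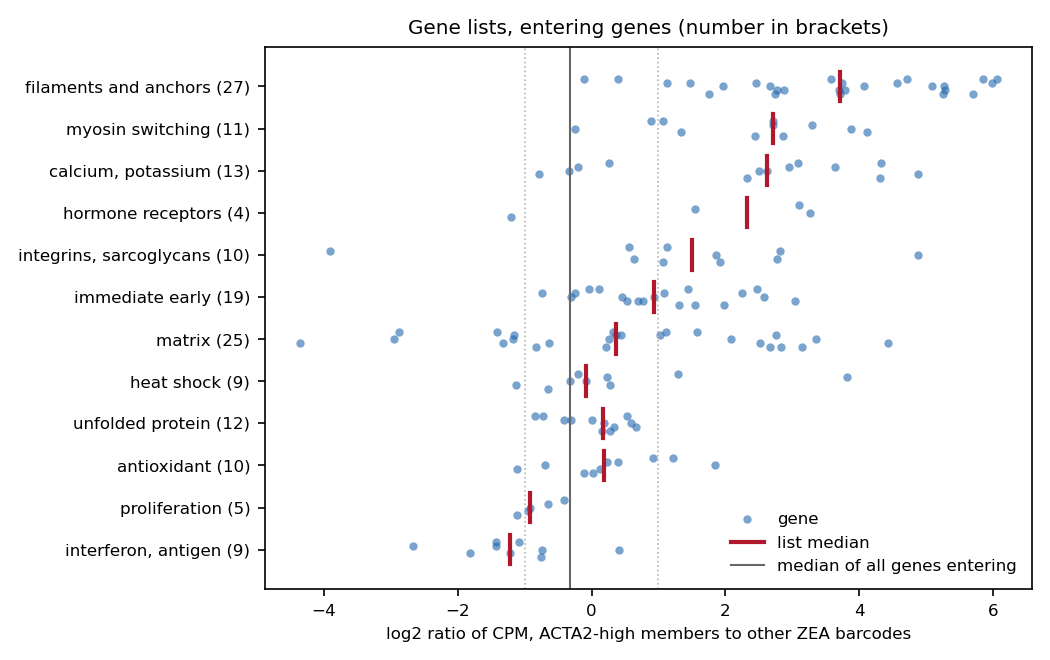
Log2 ratio of CPM, members to other ZEA barcodes (x axis), for the entering genes of 12 gene lists (y axis, number of entering genes in brackets); points are genes, red bars list medians, the solid line the median of all entering genes and dotted lines 2-fold. Filament genes have a median of 3.72 and all entering genes −0.32, while interferon and antigen genes have a median of −1.22.

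Matrix genes were divided. Of 25 entering, 11 were at least 2-fold higher and 7 at least 2-fold lower than in the other ZEA barcodes. The shares of all entering genes were 11.3% and 16.9%, and the list's median log2 ratio was 0.36. Among the listed genes, 5 of the 11 entered through the members alone and 5 of the 7 through the other barcodes alone. The microfibril protein MFAP4 was at 302 CPM against 13.9, the protease inhibitor TIMP1 at 1182 against 134, COL14A1 at 276 against 26.9, COL18A1 at 415 against 65.6 and the laminin chain LAMB2 at 448 against 78.3. COL4A5, a basement membrane collagen among the leading genes, was at 193 against 7.42 CPM. The common basement membrane chains went the other way: COL4A1 was at 612 CPM in the members against 1527 and COL4A2 at 177 against 317, with 3647 and 741 in the endothelial gate. Basement membrane genes thus did not differ in a single direction.

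Among integrins and the dystrophin complex, 7 of 10 entering genes were at least 2-fold higher and 1 lower. The shares of all entering genes were 11.3% and 16.9%. However, 5 of the 7 entered through the members alone, and of the 4 listed genes detected on the other side, 2 were higher. ITGA7, a laminin receptor of muscle, was at 317 CPM against 10.8, and had 0 UMIs in the DCN gate. The sarcoglycans SGCA and SGCB were at 107 against 15.2 and 57.5 against 15.9 CPM. ITGA6, a laminin receptor of endothelium and epithelium, was the gene on the lower side, at 11.1 against 167 CPM.

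Of the signals known between the tubule wall and its neighbours, 6 of 25 matched genes entered. Of these, 2 were at least 2-fold higher and 1 lower, beside 11.3% and 16.9% of all entering genes. The higher ones, INHBA and NR4A1, entered through the members alone. INHBA, a subunit of activin, was at 45.4 CPM in the members against 4.06 and the nuclear receptor NR4A1 at 78.6 against 9.55. KITLG, the ligand of KIT, was at 137 against 91.3 CPM and CXCL12, a chemokine, at 157 against 81.5, both under 2-fold. The endothelial gate held more of each, 214 CPM of KITLG and 177 of CXCL12, and the DCN gate held none of either. WT1 had no UMI in the members against 36.3 CPM in the other barcodes. GDNF, a factor for spermatogonial stem cells, had 2 UMIs, CSF1 had 2 and LIF 0.

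Transcription factors of the muscle programme had few UMIs, and 6 of 27 matched genes entered. MEF2C was at 169 CPM in the members against 85.8 in the other ZEA barcodes, the Notch ligand JAG1 at 98.8 against 42.1 and the Notch target HES1 at 29.2 against 6.90. KLF4, known to oppose the contractile state, was at 227 against 210 CPM. MYOCD, the cofactor that drives smooth muscle genes, had 9 UMIs in the members (9.07 CPM, 4.15 to 17.2) and 0.236 CPM elsewhere, and SRF had 2 UMIs.

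The oestrogen receptor genes were near 0. ESR1 had 1 UMI in the 467 members (1.01 CPM, 0.0255 to 5.62) and ESR2 had none. Of 12 matched oestrogen response genes, 4 entered. Of these, 1 was at least 2-fold higher than in the other ZEA barcodes, beside 11.3% of all entering genes. That gene, IGFBP5, entered through the members alone, while CXCL12, HSD17B12 and NRIP1 were within 2-fold. These values compare cells of 1 treated library and say nothing of a response to treatment.

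Stress and activation genes did not move as a block. Of 19 entering immediate early genes, 9 were at least 2-fold higher and none lower, beside 11.3% and 16.9% of all entering genes. Immediate early genes are switched on within minutes of a stimulus or of cell handling. Of the 9, 4 entered through the members alone. FOS was at 3419 CPM against 1261 and the RNA-binding gene ZFP36 at 2131 against 859, but the endothelial gate held 2412 and 1857. ATF3 was at 1021 CPM against 185, and BTG2 at 513 against 85.8. The list's count was 12 of 19 when centred on the median gene and 13 of 19 with equal weight per barcode.

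Of 9 entering chaperones, CRYAB, a small heat shock protein of muscle, was at 759 CPM against 53.7 and HSPB1 at 2980 against 1210. Of the 9, these 2 were at least 2-fold higher and 1, HSPH1, lower, at 64.5 against 141 CPM. The shares of all entering genes were 11.3% and 16.9%, and the list's median log2 ratio was −0.08. None of 12 unfolded protein response genes was 2-fold different, with HSPA5 at 447 against 310 CPM and DDIT3 at 134 against 111. Of 10 antioxidant genes, PRDX3 and TXN were at least 2-fold higher and MGST1 lower, beside 11.3% and 16.9% of all entering genes. Of 2 entering apoptosis and arrest genes 1 was at least 2-fold higher, beside 11.3% of all entering genes. It was the cell cycle inhibitor CDKN1A, at 377 against 172 CPM.

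Interferon and antigen presentation genes lay low. Of 9 entering, 6 were at least 2-fold lower and none higher, with a median log2 ratio of −1.22, beside 16.9% of all entering genes lower and a median of −0.32. Centred on the median gene, 4 of 9 were. Of the 6, 3 entered through the other barcodes alone. MX1, an antiviral gene, was at 13.1 CPM in the members, 83.7 in the other ZEA barcodes and 171 in the endothelial gate. NFKBIA, the inhibitor of NF-kappa B, was at 155 against 545 CPM. Of 5 entering proliferation genes 1 was at least 2-fold lower, near the share of all genes, CENPF at 43.4 against 93.5 CPM, and the spermatid gate held 112. Without group 4, 4 of the 5 were, and none when centred on the median gene.

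The nearest mural set was the KCNJ8 gate, and against it 462 of 3229 entering genes (14.3%) were at least 2-fold higher in the members and 166 (5.14%) at least 2-fold lower. The higher side was 73.6% of these calls, or 62.3% when centred on the median gene. Asking that the counting interval exclude a ratio of 1 left 288 higher and 161 lower, and 248 of the 462 entered through the members alone. Of 26 filament and anchor genes, 16 were at least 2-fold higher and none lower, with a median log2 ratio of 1.37; of the 20 also detected in 5% of the gate, 10 were higher (median 1.01). Of 16 immediate early genes 2 were higher and none lower (median log2 0.27), near the share of all genes. MYH11 was 12.8-fold higher (log2 3.67, 3.28 to 4.10) and was found in 96.6% of members and 32.9% of the gate. CALD1 (log2 0.20), VCL (−0.70) and PGM5 (−0.24) were within 2-fold, so the 2 sets shared part of the apparatus.

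CRYAB had the highest ratio to the KCNJ8 gate, with 753 UMIs in the members and 2 in the gate (log2 5.54, 3.68 to 8.58). OLFML2A, NET1, COL4A5 and S100A2 had 1 UMI each in the gate and RCAN2 had 3, so their ratios have wide intervals, from 2.92 to 10.71 for OLFML2A. MT1X, a metallothionein that binds zinc and copper, was at 1218 CPM against 73.6 and DAPL1 at 651 against 40.9. COL14A1 was at 276 against 16.4 CPM.

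In the other direction stood POSTN, the matrix protein periostin, at 9.07 CPM in the members against 1039 in the KCNJ8 gate (log2 −6.84, −8.00 to −5.87), found in 1.07% and 71.4% of barcodes, and in 0.257% of the spermatid gate. HIGD1B, a pericyte gene, was at 69.6 against 1890 CPM and COX4I2, a hypoxia-responsive subunit of cytochrome oxidase, at 146 against 1072. The matrix genes ASPN and THBS4 were at 98.8 against 1145 CPM and 89.7 against 892, and PCOLCE, an enhancer of collagen processing, at 71.6 against 695. APOE was at 1312 against 11381 CPM and present in 54.4% of members, every barcode of the gate and 6.86% of the spermatid gate. The list of matrix genes had 10 of 19 genes at least 2-fold lower and 4 higher, beside 5.14% and 14.3% of all entering genes. All 4 entering pericyte markers were lower. RGS5 itself was at 992 CPM in the members and 2217 in the gate, and GUCY1A1 at 125 against 295. ABCC9, the partner subunit of the KCNJ8 channel, was at 28.2 against 245 CPM, next to a gate that KCNJ8 itself chose.

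Against the DCN gate, 399 of 3773 entering genes (10.6%) were at least 2-fold higher in the members and 315 (8.35%) lower. Higher calls made up 55.9%, 67.9% when centred on the median gene, and without group 4 there were 599 lower genes. Of 26 filament and anchor genes 24 were higher and none lower (median log2 2.99), 13 of them having entered through the members alone. This gate was limited to at most 1 ACTA2 UMI, which bears on that count.

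MCAM was at 762 CPM in the members against 3.28, from 1 UMI in the DCN gate (log2 7.86, 5.38 to 13.17). DAPL1, NET1, PGM5, PLCB4, a phospholipase that raises calcium, and CLDN10 also had 1 UMI in the gate. CSRP2, a LIM protein of smooth muscle, had 2 UMIs in the gate and was at 714 CPM in the members. RCAN2 had 0 UMIs in the gate and was at least 60.1-fold higher in the members, against a floor of 3 UMIs. Of 16 immediate early genes, 12 were higher and none lower, beside 10.6% and 8.35% of all entering genes. Of the 12, 5 entered through the members alone. ATF3 was at 1021 against 26.2 CPM and ZFP36 at 2131 against 230.

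Fibroblast matrix and secreted genes made up the lower side. PLAC9 had 2 UMIs in the members and 764 CPM in the DCN gate, MFAP5, a microfibril protein, 7.06 against 1378 CPM and the growth factor IGF2 28.2 against 1240. APOA1, an apolipoprotein, was at 122 against 13405 CPM and CLEC3B at 160 against 6962. The fibrillar collagens COL1A1, COL1A2 and COL3A1 were at 213, 132 and 191 CPM in the members and at 3333, 3435 and 3917 in the gate. MFAP4 (302 against 417 CPM) and TIMP1 (1182 against 1332) were close to their levels in the gate, so those matrix genes were common to both sets.

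**Figure D4:**
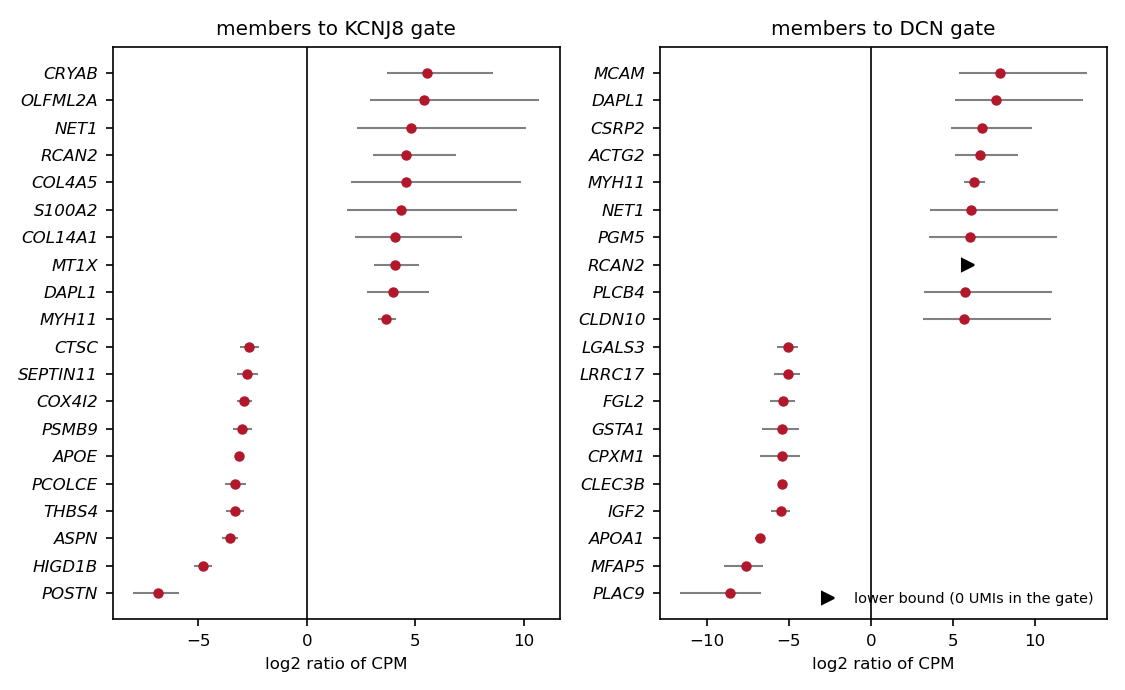
Log2 ratio of CPM, members to the KCNJ8 gate (left) and to the DCN gate (right), for the 10 highest and 10 lowest genes of each comparison; bars are 95% intervals for counting error, and the triangle is a lower bound for RCAN2, with 0 UMIs in the DCN gate. MYH11 and DAPL1 are among the highest genes on both sides, and POSTN and PLAC9 are the lowest.

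The members were not uniform. Clustering of the 467 barcodes alone, on 1000 variable genes without the 8 rule genes, gave 5 groups of 171, 127, 106, 35 and 28 barcodes. The genes that lead a group define it and are given as a description. Groups 1, 2 and 3 held 36.6%, 27.2% and 22.7% of members and had alike levels of ACTA2 (13713, 12773 and 12995 CPM), MYH11 (6232, 6610 and 6394) and TPM2 (9982, 8960 and 8886). Groups 4 and 5 were lower in all 3, with MYH11 at 1204 and 2047 CPM.

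Group 2 (127 members, median 1875 UMIs) stood out by MT1X, at 4054 CPM against 292 in the other members and present in 85.8% against 20.9% (4.46% of the spermatid gate). The matrix protease ADAMTS4 was at 2162 against 257 CPM in the same group, and NDC80, NDEL1, FAM50A, JMY, RANBP2 and PMP22 also led it. CDKN1A was at 1024 CPM there and at 101, 270, 166 and 119 in groups 1, 3, 4 and 5. ZFP36 was at 4030 CPM in group 2, while FOS was lower there (2195) than in groups 1 and 3 (4506 and 5240). This group kept at least 79.5% of its barcodes together under 3 other clusterings, but other members joined them in some. With 2000 variable genes, 123 of its barcodes lay in a cluster of 183. After thinning to 500 UMIs, 101 lay in a cluster of 153.

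Group 1 (171 members) and group 3 (106) differed little. Group 1 was led by LYNX1 at 221 against 90.3 CPM, CCDC107 and NDUFB6, with LAMB2 at 632 against 361 and HSPB1 at 4044 against 2482. Group 3 was led by TGFB2, a growth factor, at 261 against 109 CPM and by RASGEF1B, with FOS at 5240 against 2905 and ATF3 at 1521 against 880. With 2000 variable genes, 156 barcodes of group 1 and 53 of group 3 fell in 1 cluster of 213, so the boundary between them was not stable.

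Group 4 (35 members) was led by spermatid genes. TMEM190 was at 1038 CPM against 146 in the other members, PDILT, a chaperone of the testis, at 547 against 63.9, the bromodomain gene BRDT at 338 against 45.8 and TEX38 at 608 against 83.2. HMGB4 was at 3595 CPM in the group and between 1095 and 1347 in the other groups. The 35 barcodes had a median of 2767 UMIs and 0.806% mitochondrial UMIs and held 16.4% of all member UMIs. Over all members the 10 matched spermatid markers, all detected, were at 3489 CPM (0 to 174 UMIs per member), beside 3248 in the KCNJ8 gate, 4711 in the DCN gate, 1695 in the endothelial gate and 11369 in the spermatid gate. HMGB4 was in 91.0% of members. Whether group 4 held pairs of cells in a droplet or cells with more free RNA was not tested. Thinned to 500 UMIs, 31 of its 35 barcodes joined the large cluster.

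Group 5 (28 members, median 1385 UMIs, median ACTA2 9.5 UMIs) carried stromal genes. APOE was at 12502 CPM against 714 in the other members, COL1A1 at 1848 against 125, COL3A1 at 1511 against 120, COL4A1 at 2564 against 508 and IGFBP6 at 3558 against 456. The pericyte gene HIGD1B was at 596 CPM there and at most 57.3 in the other groups, and RCAN2 at 19.9 CPM against 191 to 737. Group 5 thus held genes of the KCNJ8 and DCN gates together with lower levels of ACTA2, MYH11 and TPM2 than groups 1 to 3. CALD1 was closer to those groups, at 6519 CPM against 7086, 7486 and 8556. It kept at least 92.9% of its barcodes together under the other clusterings.

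**Figure D5:**
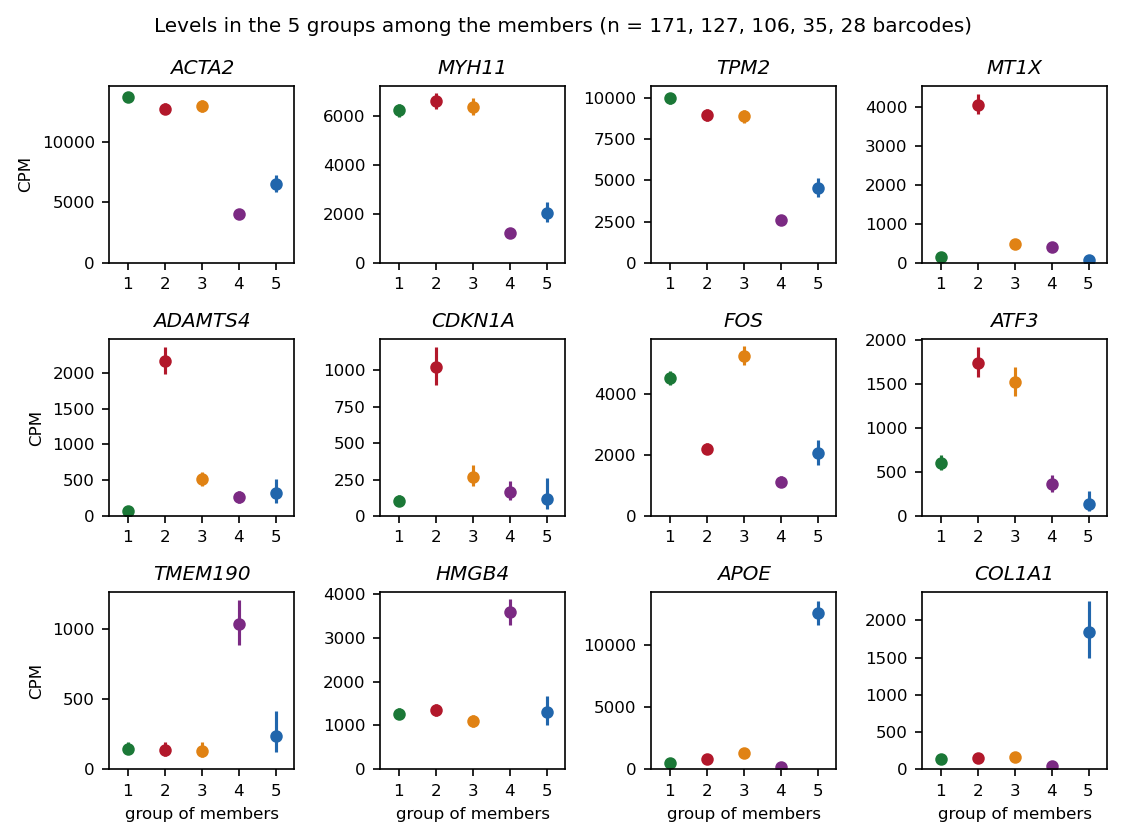
Levels (y axis, CPM) of 12 genes in the 5 groups of members (x axis); bars are exact Poisson 95% intervals. MT1X and ADAMTS4 stand out in group 2 (4054 and 2162 CPM), TMEM190 and HMGB4 in group 4 (1038 and 3595) and APOE and COL1A1 in group 5 (12502 and 1848).

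Members with more ACTA2 UMIs also held higher CPM of other contractile genes. From the 63 members with 5 to 9 ACTA2 UMIs to the 59 with 40 to 73, TPM2 went from 4907 to 13070 CPM, ACTG2 from 537 to 2104, MYH11 from 4070 to 7560 and TAGLN from 913 to 1842. MYH11 was not higher at every step, with 3879 CPM in the 138 members of 10 to 19 UMIs and 5553 in the 81 of 30 to 39. APOE went the other way, from 3511 to 747 CPM, while MGP, an inhibitor of calcification, stayed between 9062 and 11758. The median total was 1329 UMIs in the lowest and 2123 in the highest of these classes, so ACTA2 counts and depth moved together. HMGB4 was at 1858, 1990, 1418, 1582 and 1218 CPM from the lowest class to the highest, and the spermatid-rich group 4 and stromal group 5 had the lowest median ACTA2 counts (17 and 9.5 UMIs, against 21 to 26 in the other groups). The parts of depth, spermatid RNA and stromal RNA in this pattern were not tested.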

How the data were processed

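Droplet libraries of sheep testis were deposited as matrices that hold raw counts of UMIs, with no normalization; the labels' protocols name the 10x Genomics 3' gel bead kit V3. Cell Ranger 3.1.0 and STAR are listed in the submitters' processing notes, while the deposited matrix headers give Cell Ranger 5.0.0 for the control and 3.1.0 for ZEA. Neither the genome build nor how barcodes were kept is given in the sources used here. Of 27054 genes, 10636 carry an identifier without a symbol; they count in all sums and calls.

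The members, gene lists, marker lists and gates were chosen with earlier results of these data known. Symbols in the 16 lists that matched no gene are left out of each list's count. UMIs were summed over each set of barcodes and scaled to CPM (counts per total of 1000000) with exact Poisson intervals; log2 ratios have exact conditional binomial intervals and shares exact Clopper-Pearson intervals, all at 95%. A gene entered with at least 50 UMIs over both sums and detection in at least 5% of the barcodes of 1 side, and was called at 2-fold or more. The 8 rule genes stayed out of calls. A sum of 0 was set to 3 UMIs for a ratio. UMI totals of 122219 (KCNJ8 gate) to 991828 (members) make 1 UMI worth more in the gates.

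Named against the other ZEA barcodes were the 30 highest and 10 lowest ratios (genes with symbols only; 200 or more UMIs in sum; detection in 25% of the higher side, or 10% for the lowest). Against each gate they were the 10 highest and 10 lowest with at least 100 UMIs and detection in 20%. For each group they were the 8 leading genes with at least 50 UMIs and detection in 25%, and from the lists any entering gene; a few listed genes that did not enter are named for their low counts. Genes added to the account of a group or of ACTA2 classes were picked after their values were seen.

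Groups came from Leiden clustering (scanpy 1.11.5, igraph 0.11.9; 15 components, 15 neighbours, resolution 0.5, seed 0). No doublet caller was run; leaving out the 5% deepest barcodes served as an alternative. The comparison was tested on simulated data. Alternatives changed the ACTA2 limit, depth, mitochondrial share, weighting, scaling and entry filter.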

Additional observations from a re-analysis of the deposited data

How the results depend on the processing

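No paired analysis was possible because each group has 1 library. The median log2 ratio of the filament and anchor genes lay between 3.48 and 4.04 under all 12 alternatives run for it. All 80 named genes of the 3 comparisons stayed past 2-fold in their direction under 13. For the named genes, settings that changed only entry or the call left each ratio as it was and could not fail. Counts of genes depended more on the settings. Against the other ZEA barcodes, 367 genes were higher after thinning to 500 UMIs, 1871 were lower with equal weight per barcode and 473 with median scaling; an entry of 20 UMIs with no detection filter gave 2003 higher and 2504 lower. Without group 4, a setting chosen after seeing the data, 1858 were lower, and 599 lower than in the DCN gate. Thinning left 120 higher and 43 lower against the KCNJ8 gate and 163 and 80 against the DCN gate, an entry of 20 UMIs gave 905 and 480 and then 696 and 799, and an entry of 200 UMIs gave 88 and 33 and then 144 and 64. Each of these tested fewer or more genes. Asking also, after seeing the data, that the counting interval exclude a ratio of 1 left 288 higher than in the KCNJ8 gate. The share of members was 4.59% with at least 10 ACTA2 UMIs and 7.94% among barcodes of at least 1000 UMIs. The number of groups was 7 at resolution 1, 4 with 2000 variable genes and 3 after thinning. The calcium and potassium list had a median log2 ratio of 2.62 as reported and 0.03 with an entry of 200 UMIs. Receptors and transcription factors that did not enter were left out of the counts, and values printed for some of them, such as AGTR1 and MYOCD, are a description.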

Other observations

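MT1X and ADAMTS4, chosen here after their values were seen, often occurred in the same members. MT1X was present in 134 of the 200 members with ADAMTS4 (67%, median 1902 UMIs) and in 46 of the 267 without it (17.2%, median 1784 UMIs). Members with ADAMTS4 also held more PMP22 (47.5% against 21.0% of members), KLF10 (60% against 30.7%), CDKN1A (52% against 22.1%) and NR4A2 (30% against 10.1%), while MYH11 was at 5461 and 5217 CPM and TPM2 at 7427 and 8447. The KCNJ8 gate had nearly the same ADAMTS4 level, 671 CPM against 726 in the members, but MT1X was in 2 of its 25 barcodes with ADAMTS4 and in 8.89% of the rest. In the endothelial gate the shares were 21.7% and 5.98%. Clustering placed many of these members in group 2, which these genes lead.

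The gene ENSOARG00000012585, which has no symbol in the deposited files, gave 2.45% of all member UMIs, the largest part of any gene. Of its 24277 UMIs, 94.3% came from 10 members with at least 20 each, the highest with 8616, and the median member had 3. Of these 10 members, 7 were in group 4 and 3 in group 1. Across the ZEA library 226 barcodes held at least 20. Without those 10 members its share was 0.147%, and 718 genes were higher and 933 lower than in the other ZEA barcodes.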
